A study of Mus musculus with 24 samples.

Results

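The genes described are those of the cytosolic ribosome, measured on microarrays of mouse amygdala and hippocampus. A member is a gene whose symbol has the form Rpl or Rps plus a number, with at most 1 closing letter a, x, y or l, or the form Rplp0 to Rplp2. Only probe sets annotated with exactly 1 such symbol were used, and each gene was read from the probe set with the highest mean over all arrays. The rule found 45 genes on 98 probe sets, of 18194 genes with a probe set of their own: 22 of the large subunit, 21 of the small subunit and 2 of the stalk. The series holds 24 one-colour Affymetrix expression arrays of total RNA, from mice descended from the strains C57BL/6J and A/J and selected on contextual fear conditioning, a task that scores freezing in a place paired with shock. The 4 groups of 6 arrays were amygdala of animals labelled high freezing, amygdala labelled low freezing, hippocampus labelled high freezing and hippocampus labelled low freezing. All groups share this descent, and age, sex and generation of the animals are not given in the sources used here. Since the labels do not say how many animals each array stands for, the p-values cover only the spread among arrays, which may be technical.

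The cytosolic ribosome translates messenger RNA into protein. Its small subunit reads the message, its large subunit joins the amino acids, and a flexible stalk of acidic proteins on the large subunit recruits the elongation factors. Most ribosomal protein messages begin at their 5′ end with a cytosine followed by a run of pyrimidines, the terminal oligopyrimidine tract, through which the kinase mTOR adjusts their translation to nutrients and growth factors. In neurons, ribosomes occur in dendrites as well as in the cell body, and new protein synthesis is needed for long-term fear memory.

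To show that feature, the start regions of 8 members described further on are printed from RefSeq promoters of assembly GRCm38.p6. Each holds the 30 bases before the annotated transcription start and the 20 bases from it, 5′ to 3′ on the gene's strand. Capitals mark a run of at least 5 pyrimidines (C or T) that overlaps the start or lies within 2 bases of it. The first 6 have such a run and the last 2 have none.
Rps18, chr17:33955646-33955695, minus strand: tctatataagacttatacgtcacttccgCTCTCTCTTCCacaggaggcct
Rpl38, chr11:114668550-114668599, plus strand: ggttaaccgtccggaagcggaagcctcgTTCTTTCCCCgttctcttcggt
Rplp2, chr7:141447621-141447670, plus strand: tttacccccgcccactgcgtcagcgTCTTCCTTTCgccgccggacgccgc
Rpl35, chr2:39005112-39005161, minus strand: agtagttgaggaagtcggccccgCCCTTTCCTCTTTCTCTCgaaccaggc
Rps6, chr4:86857348-86857397, minus strand: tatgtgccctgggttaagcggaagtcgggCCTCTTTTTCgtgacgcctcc
Rps9, chr7:3704011-3704060, plus strand: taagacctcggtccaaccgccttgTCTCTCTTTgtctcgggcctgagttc
Rplp0, chr5:115559437-115559486, plus strand: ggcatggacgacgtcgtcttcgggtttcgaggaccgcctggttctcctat
Rps3, chr7:99483690-99483739, minus strand: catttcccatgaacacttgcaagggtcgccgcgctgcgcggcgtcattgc

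A promoter was given for 39 of the 45 members. The run of at least 5 pyrimidines at the start was present in 18 of these 39 genes (46.2%), against 25.3% of all 27018 genes with a promoter. A run of at least 8 was present in 14 of them (35.9%), against 7.98% of all genes. The strict form, a C at the annotated start followed by 4 pyrimidines, was present in 8 of them (20.5%), against 3.01% of all genes. In windows of 250 bases before and 50 bases from the start, the motif TTCCGG on either strand was found for 25 of the 39 (64.1%), against 16.7% of all genes, and GGGCGG on either strand for 21 (53.8%), against 38.2%. The TATA motif TATAAA was found for 5 of the 39 (12.8%), against 15.7% of all genes. These counts describe letters in the windows, and the annotated start of a gene can lie beside the start used in brain.

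The members were spread over 17 chromosomes, with the most, 7, on chromosome 7. Probe sets of 32 members averaged between 2347 and 12466 intensity units over all arrays, and those of the other 13 averaged between 1.21 and 486 units. The levels of different probe sets are not comparable with each other, since each binds with its own strength. Of the 13 members under 500 units, 9 also occur on probe sets that carry several symbols, whose brightest averaged between 4037 and 7745 units, so for these 9 a dim value need not be the level of the gene. The other 4, Rps27l, Rps4l, Rpl39l and Rpl3l, have no such probe set. Rps16, a small subunit protein, had 1.21 units, Rpl3l 6.24 and Rpl39l 9.68 units, and these 3 were the members that did not pass the filter on dim probe sets. Another 28 symbols of the same form occur only on probe sets with several symbols and are not members. Of the members, 30 were read from probe sets with a suffix that Affymetrix gives to probes shared between transcripts or genes, and 15 have none. The suffix was a, for probes shared between transcripts of the same gene, in 15 members. It was x in 13 and s in 2, for probes that may bind sequences of other genes. Ribosomal protein genes have many processed pseudogenes, and a share of the signal from related copies cannot be told apart here.

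The deposited intensities had been scaled to 1 target per array, with array medians between 36.7 and 43.4 units. Array medians averaged 42.6 ± 0.78 and 40.9 ± 1.38 units in high and low freezing amygdala, against 39.8 ± 1.65 and 37.7 ± 0.75 units in high and low freezing hippocampus (SD, n = 6 each). The 3′ to 5′ signal ratio of the Gapdh control probes averaged 0.829 and 0.862 in high and low freezing amygdala and 0.792 and 0.836 in high and low freezing hippocampus. The part of these array differences in the results was not tested. Most regional markers went with the labels. All 8 dentate gyrus markers and 7 of 8 markers of the hippocampal CA fields were called lower in the amygdala. The remaining 1 CA marker was called higher there, as were all 8 markers of central amygdala and striatum. Differences are given as log2(intensity + 16), which understates the change of dim probe sets, and a call means an adjusted p under 0.05 by limma with Benjamini-Hochberg adjustment over 27022 probe sets.

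The members varied little within a group. The within-group standard deviation of a member had a median of 0.11 on the log2 scale and ranged from 0.070 to 0.55, against a median of 0.20 over all probe sets kept and 0.11 over those at 2000 units or more. The mean over the 42 members kept, taken per array, still varied by 0.068 within groups, so that arrays of 1 group differed in most members at once. In the hippocampus, high freezing array 11 had 40 of 42 members below the mean of its group, by 0.15 on average. Low freezing array 4 of the hippocampus had 37 of 42 below, by 0.12, and low freezing array 1 of the amygdala had 38 of 42 above, by 0.11. The members' medians without these arrays are given beside the freezing comparisons and the interaction.

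**Figure D1:**
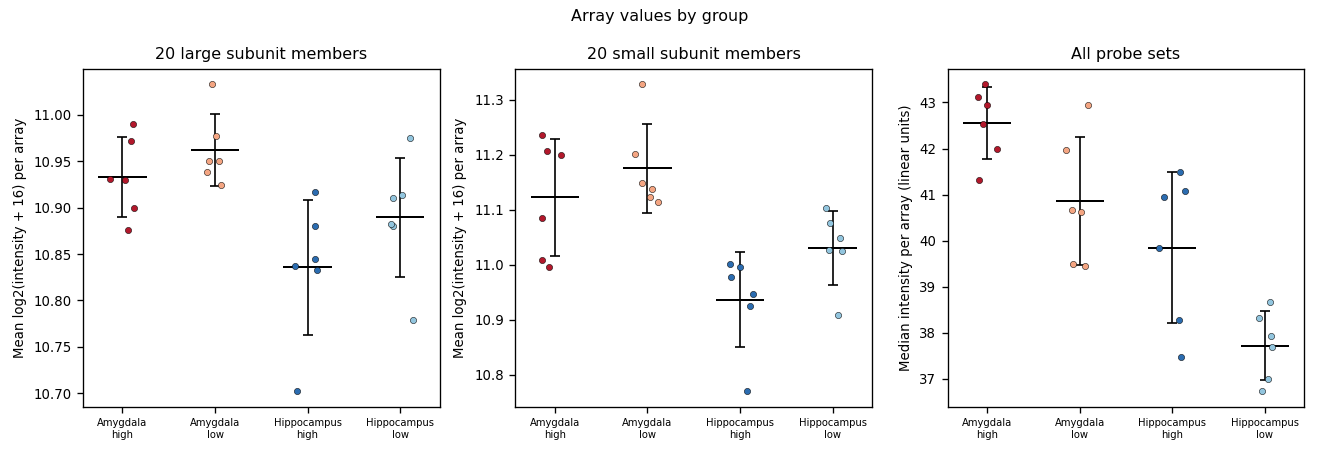
Mean log2(intensity + 16) over the 20 large subunit and the 20 small subunit members kept, and the median intensity of all probe sets, per array (points), with group mean and SD (bars, n = 6). The lowest point in both subunit panels is high freezing hippocampus array 11; the members' axes do not start at 0.

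The first comparison asks how the members differ between amygdala and hippocampus, averaged over both freezing groups. Of the 42 members kept, 24 were higher in the amygdala and 1 was lower, while 27.2% of all probe sets were called higher, 24.2% lower and 51.4% in either direction. The median difference of the members was 0.15 on the log2 scale, against 0.017 over all probe sets kept, and 33 of the 42 lay above 0. Non-ribosomal probe sets of 2000 units or more did not share this direction, with 260 called higher and 277 lower of 723 and a median of 0.0056. The differences were small in size: all but 2 members lay within 0.30 of 0. In bulk tissue a difference in the kinds of cells present and a difference in RNA per cell cannot be told apart.

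The regions were also set against each other within each freezing group, as counts of sign and not of calls. Between the high freezing groups 35 of 42 members (83.3%) lay above 0, with a median of 0.17, against 52.4% of all probe sets and a median of 0.018. Between the low freezing groups 31 of 42 (73.8%) lay above 0, with a median of 0.13, against 51.9% and a median of 0.015. Under other scalings of the arrays the members' median stayed above 0 and above that of all probe sets: it was 0.080 against -0.020 with quantile normalization, and 0.076 against -0.059 with each array centred on its median. The split of calls shifted, with 19 members higher and 10 lower under quantile normalization, and 10 higher and 6 lower under centring. Over all probe sets, quantile normalization gave 24.9% higher and 27.1% lower, and centring gave 20.8% higher and 31.9% lower. The 10 members that kept the call under centring were Rps6, Rps27l, Rps3, Rps9, Rpl22, Rps20, Rpl41, Rps24, Rps19 and Rpl7. Leaving out 1 array at a time gave 22 to 25 members higher and 0 to 1 lower.

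Among the small subunit members 13 of 20 were higher in the amygdala and none was called lower, with a median of 0.17. Rps3, a protein at the entry of the messenger RNA channel, had a lowest, median and highest intensity of 4024, 4551 and 4929 units in the amygdala, against 3088, 3717 and 4000 units in the hippocampus. Every amygdala array lay above every hippocampus array. The difference was 0.30 ± 0.040 (SE), or 1.23-fold, with an adjusted p of 3.66e-07 by limma. Rps9, also at the entry of the channel, had 2487, 2793 and 3090 units in the amygdala, against 2000, 2244 and 2486 units in the hippocampus, a difference of 0.29 ± 0.041 (adjusted p = 8.82e-07 by limma). Its ranges did not overlap either. Of the 42 members, 4 had regional ranges that did not overlap (Rps3, Rps9, Rps27l and Rpl22), against 13.2% of all probe sets kept.

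Rps20, a protein of the small subunit head, had 4111, 4523 and 5119 units in the amygdala (lowest, median and highest) and 3426, 3696 and 4238 units in the hippocampus. The difference was 0.27 ± 0.040, although the ranges overlapped slightly (adjusted p = 1.02e-06 by limma). Rps24, mutated in some patients with Diamond-Blackfan anaemia, had 5746, 6289 and 7208 units in the amygdala, against 4706, 5494 and 5847 in the hippocampus, a difference of 0.24 ± 0.041. Rps19, the gene most often mutated in that anaemia, averaged 3495 ± 174 units in the amygdala, against 3034 ± 244 in the hippocampus (n = 12 arrays each, SD), a difference of 0.21. Rps18, often used as a reference gene for expression, averaged 3806 ± 304 units in the amygdala, against 3315 ± 399 in the hippocampus, a difference of 0.21 as well. The remaining called members of the small subunit were Rps26, Rps15, Rps4x, Rps29 and Rps10, between 0.10 and 0.18, and the dimmer Rps6 and Rps27l. Rps10 and Rps29 were called by a small margin, with adjusted p of 0.0382 and 0.0304 by limma, and their calls rested on single arrays. Rps29 lost the call without high freezing amygdala array 9 or without hippocampus array 11 (high) or 1 or 4 (low), with a difference then of at least 0.10, and turned to -0.16 with quantile normalization. Rps10 lost it without amygdala arrays 9 or 11 (high) or 1, 5 or 6 (low), or without hippocampus arrays 8, 10 or 11 (high) or 1, 2 or 4 (low), with a difference then of at least 0.086.

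Rps6 is the small subunit protein that the S6 kinases phosphorylate downstream of mTOR, and its phosphorylated form is widely used as a marker of neuronal activity. Its probe set had 112.8, 214.9 and 259.4 units in the amygdala (lowest, median and highest) and 71.8, 134.0 and 200.9 units in the hippocampus. It had the largest regional difference of the 42 members, 0.51 ± 0.16, but also one of the widest spreads, and its regional ranges overlapped over much of their length (adjusted p = 0.0076 by limma). This probe set averaged 167 units, while the brightest probe set that carries Rps6 among several symbols averaged 7286 units. The value above need therefore not be the level of the gene. The array measures RNA and holds nothing on the phosphorylated protein.

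In the large subunit 10 of 20 members were higher in the amygdala and 1 was lower, with a median of 0.13. Rpl22, an RNA-binding protein that is not needed for translation in general, had 2292, 2566 and 2994 units in the amygdala, against 1958, 2134 and 2261 in the hippocampus, a difference of 0.29 ± 0.036 with ranges that did not overlap (adjusted p = 6.63e-08 by limma). This value rests on 1 of 3 probe sets of the gene. The other 2 probe sets of Rpl22, dimmer at 807 and 499 units, were both called lower in the amygdala, at -0.70 and -0.41, so the direction of the gene is not settled.

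Rpl41, among the shortest of ribosomal proteins, averaged 8364 ± 813 units in the amygdala, against 7058 ± 816 in the hippocampus, a difference of 0.25. Rpl35, at the exit of the tunnel through which the new chain leaves, averaged 4930 ± 407 and 4337 ± 454 units in amygdala and hippocampus, a difference of 0.19. Rpl11, which with the 5S RNA particle binds the p53 regulator Mdm2 when ribosome assembly fails, averaged 3448 ± 242 units in the amygdala, against 3051 ± 207 in the hippocampus, a difference of 0.18. Rpl19 and Rpl13a, both used as reference genes in expression studies, were higher by 0.16 and 0.18. Rpl13a too was read differently by its other probe sets, of which 2 of 3 were called lower. The called members of the large subunit also held Rpl27, Rpl7, Rpl8 and Rpl37a, between 0.13 and 0.18.

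Not all large subunit members followed. Rpl4 and Rpl6, both core proteins of the subunit, lay at -0.064 and -0.058, Rpl10a at -0.035 and Rpl7a at 0.016, and none of these passed the test. Rpl38, which in mouse embryos is needed for the translation of certain Hox messages, had 8897, 9768 and 10806 units in the amygdala, against 7517, 9103 and 11204 units in the hippocampus, a difference of 0.093 (adjusted p = 0.0870 by limma). Rpl12, at the base of the stalk, was the only member called lower in the amygdala. It averaged 66.0 ± 7.79 units in the amygdala, against 77.7 ± 10.9 in the hippocampus, a difference of -0.19 ± 0.075 on a dim probe set, with an adjusted p of 0.0359 by limma. The call was lost when any 1 of 9 arrays was left out, with differences between -0.22 and -0.16 over all arrays left out in turn. Those 9 arrays are high freezing 9 and 11 and low freezing 2 and 5 of the amygdala, and high freezing 7 and 11 and low freezing 1, 2 and 4 of the hippocampus.

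The stalk was represented by Rplp0, which anchors it, and Rplp2, one of its acidic proteins. Rplp2 had 5323, 6319 and 7333 units in the amygdala, against 4910, 5579 and 6144 in the hippocampus, a difference of 0.19 ± 0.046 (adjusted p = 0.000952 by limma). Rplp0 had 2955, 3301 and 3955 units in the amygdala, against 2636, 3152 and 3585 units in the hippocampus, and its difference of 0.080 did not pass (adjusted p = 0.137 by limma). Whether both differ from each other in this respect was not tested.

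**Figure D2:**
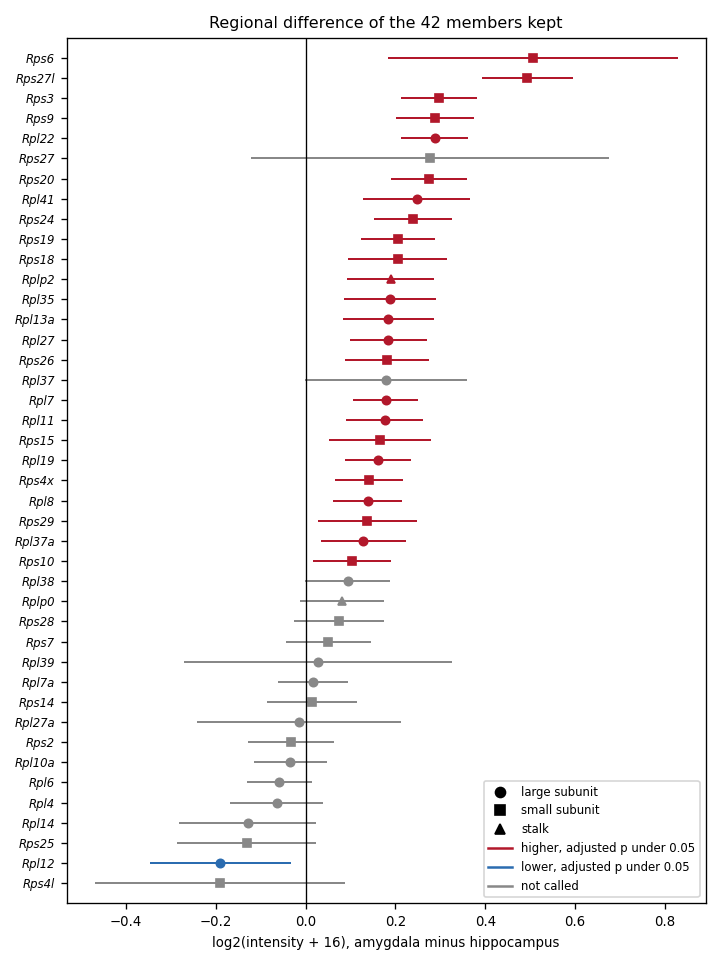
Amygdala minus hippocampus difference in log2(intensity + 16) of the 42 members kept, with 95% confidence intervals from limma; colour shows the call and shape the subunit. Of the 24 called higher, Rps6 and Rps27l stand near 0.5 and the others between 0.10 and 0.30; Rpl12 is the one called lower, and Rps29 turned to -0.16 with quantile normalization.

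Several members have a close paralog on the array. Rps27l, a paralog of Rps27 that p53 induces, had 422.9, 489.6 and 577.2 units in the amygdala against 296.2, 352.6 and 378.3 units in the hippocampus. No amygdala array reached down to the hippocampus range, and the difference was 0.49 ± 0.048, or 1.41-fold, with an adjusted p of 7.22e-10 by limma, the smallest of the 42 members. All 3 probe sets of Rps27l gave the same direction, with 0.40 and 0.45 at the other 2. Rps27 itself averaged 129.1 ± 62.5 units in the amygdala, against 100.1 ± 38.9 in the hippocampus on a dim probe set, a difference of 0.28 that did not pass (SE 0.19, adjusted p = 0.242 by limma).

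Rps4x, the X-linked form of its gene, was higher in the amygdala by 0.14, with 4712 ± 284 against 4272 ± 259 units in the hippocampus. Its paralog Rps4l lay at -0.19 on a dim probe set and did not pass (adjusted p = 0.246 by limma). Rpl39, a short X-linked protein of the exit tunnel, averaged 115.4 ± 30.4 units in the amygdala, against 114.2 ± 34.8 in the hippocampus, a difference of 0.028. Its testis-rich paralog Rpl39l averaged 12.7 ± 7.49 and 6.70 ± 6.93 units in amygdala and hippocampus, and Rpl3l, the muscle form of Rpl3, 6.37 ± 4.76 and 6.10 ± 4.95 units, both under the filter and not tested.

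**Figure D3:**
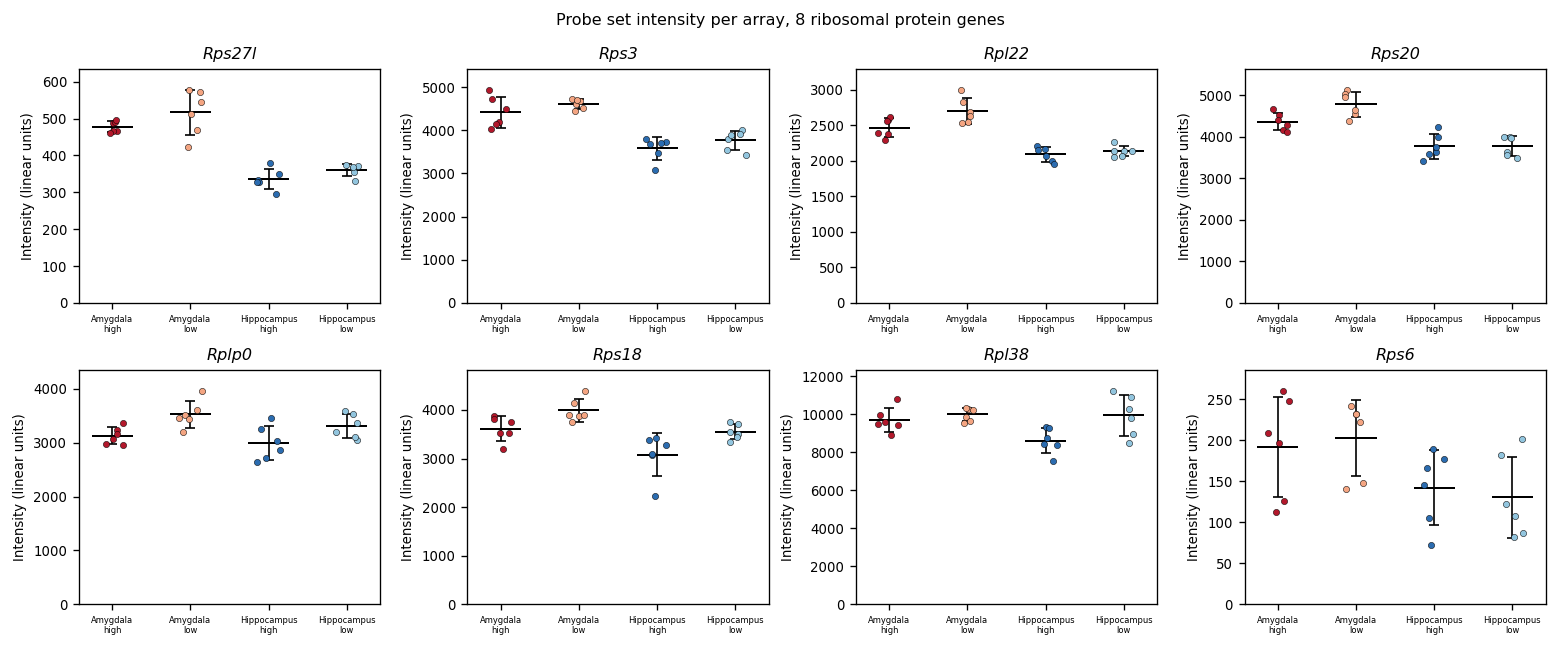
Intensity on each array (points) of 8 members in the 4 groups, with group mean and SD (bars, n = 6), on linear axes that start at 0. Amygdala arrays of Rps27l, Rps3 and Rpl22 all lie above the hippocampus arrays, while freezing groups of Rplp0, Rps18 and Rpl38 overlap within each region.

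The choice of probe set mattered for some members. Of 19 genes with several probe sets kept, 12 had the same regional direction on all of them, and 32 of 43 further probe sets shared the direction of the one chosen. Rpl13a, Rpl22 and Rps20 had probe sets called in both directions, and for Rps9 neither of the other 2 probe sets shared its direction. When all probe sets of a gene were averaged, 15 members were called higher and 2 lower; Rps3, Rps6, Rps18, Rps20 and Rps4x lost the call, and Rpl13a, Rpl22, Rpl37a and Rps9 turned below 0. Over all 85 kept probe sets of the members, 50 were called higher in the amygdala and 6 lower. The 12 members kept that were read from probe sets without a suffix had a median of 0.054, with 4 higher and 1 lower. The 30 with a suffix of any kind had a median of 0.18, with 20 higher. Suffix and brightness went together: 28 of the 32 members at 2000 units or more have a suffix, and 11 of the 13 under 500 units have none. The 32 bright members had a median of 0.16, with 22 higher. The 10 kept under 500 units had 0.0063, with 2 higher and 1 lower. The part of brightness in the suffix split was not tested. Probe sets with several symbols, at least 1 of them ribosomal, are not members but read the same family: 61 of 102 were called higher and 4 lower, with a median of 0.14.

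Markers of cell types were called between the regions in several lists. Of all probe sets, 51.4% were called in either direction. All 10 oligodendrocyte markers were higher in the amygdala, with a summed intensity of 38866 to 53308 units there and 14851 to 19989 units in the hippocampus. Choroid plexus markers were all 8 higher, with sums of 14506 to 21170 units in the amygdala and 1924 to 13516 in the hippocampus. Of 9 microglial markers 7 were higher, with sums of 3665 to 5297 units in the amygdala and 2940 to 3740 in the hippocampus, and of 7 excitatory neuron markers 6 were lower, with sums of 2307 to 3771 in the amygdala and 8362 to 10250 in the hippocampus. Inhibitory neuron markers had 4 higher and 2 lower of 7 with a median of 0.86. Neuron markers had 2 higher and 4 lower of 10 with a median of -0.10, astrocyte markers 6 higher and 2 lower of 10 with a median of 0.21, and endothelial markers 4 higher of 8 with a median of 0.23. No marker averaged 0 in any group. The part of these cell types in the members' difference was not tested.

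Other genes of translation were called in both directions between the regions. Over all probe sets, 27.2% were called higher, 24.2% lower and 51.4% in either direction. Of 5 measured ribosomal genes outside the naming pattern, Rpsa, Fau and Rps3a1 were higher in the amygdala, by 0.24, 0.13 and 0.11, none was lower, and all 5 lay above 0 with a median of 0.11. Of 76 genes of the mitochondrial ribosome, a separate particle that translates mitochondrial messages, 22 were higher and 13 lower (46.1% in either direction). Of these 76 genes, 47 lay above 0, with a median of 0.067. Mrps6 was highest there, with 839.2 ± 107 units in the amygdala, against 526.9 ± 50.8 in the hippocampus, a difference of 0.65, and Mrps34 lowest at -0.26.

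Of 46 initiation factor genes 6 were higher and 16 lower in the amygdala, with a median of -0.060. The share called in either direction was 47.8%, against 51.4% of all probe sets. Eif4a1, the helicase that unwinds the start of messages, averaged 1618 ± 173 units in the amygdala, against 2166 ± 211 in the hippocampus, a difference of -0.42. Of 10 genes of elongation and termination 3 were higher and 5 lower (80%). Eef1d and Eef1b2, which reload the tRNA carrier eEF1A, were higher by 0.54 and 0.23, as was the translocation factor Eef2 by 0.18, and Eef2k, the kinase that inhibits Eef2, was lower at -0.40.

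Of 40 ribosome assembly genes 4 were higher and 15 lower, with a median of -0.041. The share called in either direction was 47.5%, against 51.4% of all probe sets. Utp4, a nucleolar factor for the small subunit, was lowest at -0.71, with 266.5 ± 24.5 units in the amygdala, against 444.7 ± 34.0 in the hippocampus, and Bop1, a factor for the large subunit, stood at -0.45. Of 17 genes of mTOR signalling and tract-dependent translation 1 was higher and 5 lower (35.3%). The mTOR inhibitor Deptor was higher by 0.83, with 155.1 ± 18.6 units in the amygdala, against 80.1 ± 12.4 in the hippocampus. Tsc2, another brake on mTOR, stood lower at -0.44. These lists have medians on either side of that over all probe sets, 0.017, and nothing was tested over a list.

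The second comparison asks whether members differ between high and low freezing animals in the hippocampus. No member was called, and 0.0518% of all probe sets were, by limma. Before adjustment 15 of the 42 members (35.7%) had p under 0.05, against 3192 of 27022 probe sets (11.8%). For non-ribosomal probe sets of 2000 units or more the count was 147 of 723 (20.3%). The members leaned to lower values in high freezing animals: 36 of 42 lay below 0, with a median of -0.10 against 0.0052 over all probe sets kept. Non-ribosomal probe sets of 2000 units or more also lay below 0, with a median of -0.064, and with quantile normalization the median of the members was -0.042, with 28 of 42 below 0. Without high freezing array 11 it was -0.075, and without low freezing array 4 it was -0.11.

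Rpl38 had the smallest p of the 42 members in the hippocampal comparison. Its lowest, median and highest intensities were 7517, 8577 and 9321 units in high freezing hippocampus, against 8463, 10041 and 11204 units in low freezing hippocampus. The upper part of the high freezing range overlapped the lower part of the low freezing one, and the difference was -0.20 ± 0.064 (adjusted p = 0.187 by limma). Rps18 had 2233, 3188 and 3414 units in high freezing hippocampus and 3345, 3526 and 3759 units in low freezing hippocampus, a difference of -0.22 ± 0.074. Most of its high freezing arrays lay under the whole low freezing range, 1 of them far below the others. That array is number 11, and without it the difference was -0.13.

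Rps7, a small subunit protein, stood at -0.17 ± 0.064, Rps26, at the exit of the messenger RNA channel, at -0.16 ± 0.063, and Rps2, at its entry, at -0.16 ± 0.065. Adjusted p-values of these 5 members lay between 0.187 and 0.304 by limma. The only member with p under 0.05 before adjustment in the other direction was Rpl39, at 0.44 ± 0.21 on its dim probe set, with 101.1, 125.4 and 165.8 units in high freezing hippocampus and 48.6, 113.6 and 126.3 in low freezing hippocampus (adjusted p = 0.397 by limma).

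In the amygdala, the third comparison, again no member was called between high and low freezing animals, and 0.0555% of all probe sets were, by limma. Before adjustment 3 of 42 members had p under 0.05 (7.14%), against 2905 of 27022 probe sets (10.8%). The median of the members was -0.058 against 0.010 over all probe sets and -0.019 over non-ribosomal probe sets of 2000 units or more, and 36 of 42 lay below 0. With quantile normalization the median was -0.022, with 30 of 42 below 0. Without low freezing array 1 the median was -0.034, and without high freezing array 12, which had 35 of 42 members below its group mean, it was -0.032.

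Rplp0, the stalk anchor, had the smallest p of the 42 members in the amygdala. It had 2955, 3116 and 3366 units in high freezing amygdala (lowest, median and highest), against 3198, 3487 and 3955 units in low freezing amygdala. The ranges overlapped at their ends, and the difference was -0.17 ± 0.063 (adjusted p = 0.303 by limma). Rpl22 and Rps20 both stood at -0.13, Rpl35 at -0.14, and Rpl11 at 0.11, with 3456, 3588 and 3749 units in high freezing amygdala and 3051, 3212 and 3795 in low freezing amygdala. Rpl11 is the member of these 5 that was higher with high freezing, and its groups overlapped. Adjusted p-values of the 5 lay between 0.303 and 0.490 by limma. The choice of probe set mattered here too. The other probe sets of Rpl22 stood at -0.015 and 0.028. Those of Rps20 stood at -0.038 and, on dim probe sets of 26.8 and 25.4 units, at 0.074 and 0.084. All kept probe sets of Rpl35 lay between -0.14 and -0.056.

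**Figure D4:**
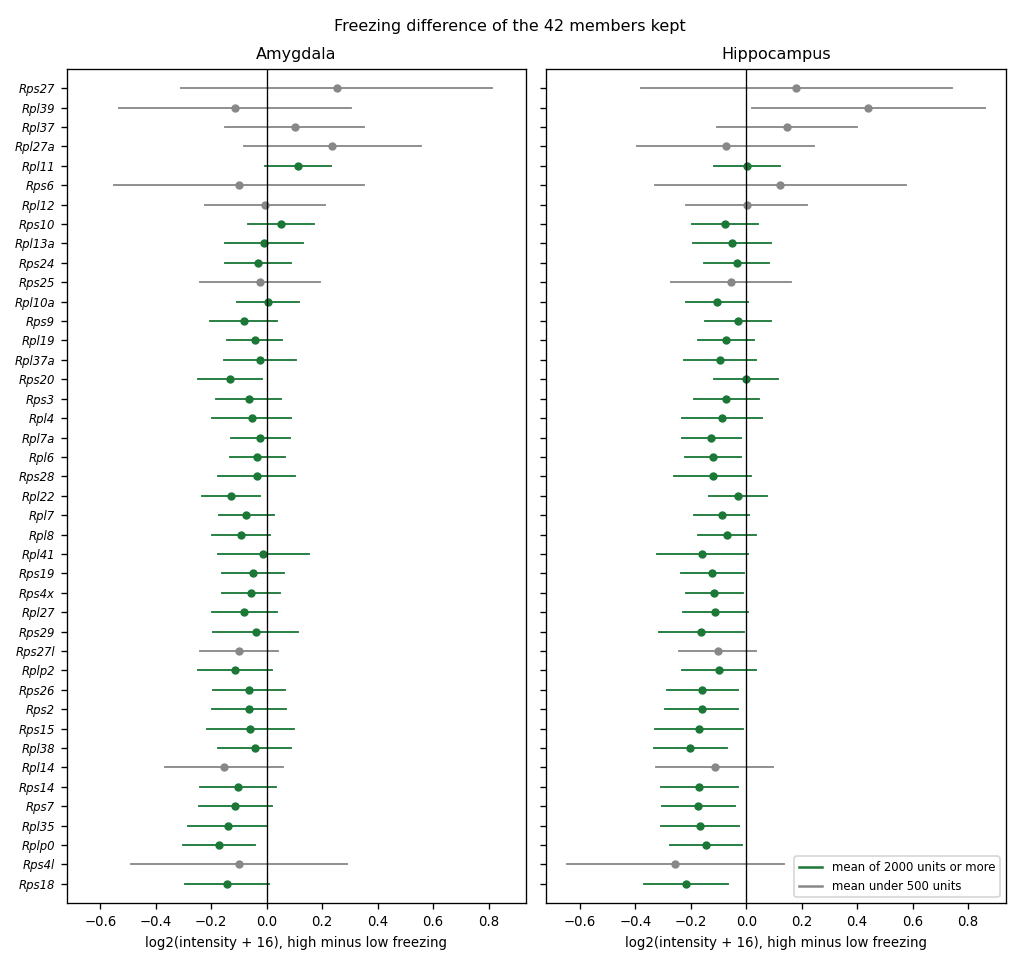
High minus low freezing difference in log2(intensity + 16) of the 42 members kept, in amygdala (left) and hippocampus (right), with 95% confidence intervals from limma; colour separates members at 2000 units or more from those under 500. In each region 36 of 42 points lie left of 0 and none was called; with quantile normalization the numbers below 0 were 30 and 28.

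Averaged over both regions, high minus low freezing gave no called member, while 1.04% of all probe sets were called by limma. Before adjustment 18 of 42 members (42.9%) had p under 0.05, against 4298 of 27022 probe sets (15.9%). For non-ribosomal probe sets of 2000 units or more the count was 177 of 723 (24.5%). The median was -0.079 against 0.011 over all probe sets, with 36 of 42 below 0. Non-ribosomal probe sets of 2000 units or more had a median of -0.040. With quantile normalization the members' median was -0.031, with 30 of 42 below 0. In the values as deposited it was -0.064 without high freezing hippocampus array 11. It was -0.087 without low freezing hippocampus array 4 and -0.067 without low freezing amygdala array 1. Rplp0 came closest, at -0.16 ± 0.045 (adjusted p = 0.0725 by limma). It passed the threshold without low freezing amygdala array 6 or without high freezing hippocampus array 10, with its difference then within the range of -0.18 to -0.14 seen over single arrays left out. Rps18 stood at -0.18 ± 0.053, Rpl35 at -0.15, Rps7 at -0.14 and Rps14, a small subunit protein whose loss underlies a human anaemia, at -0.14. Rps7 passed without low freezing hippocampus array 4. Centring each array on its median, which was higher on high freezing arrays on average, called Rplp0, Rps18, Rps7 and Rpl35. Over all probe sets, centring called 2.5% lower and 0.414% higher, against 0.5% and 0.54% in the values as deposited. The median over all probe sets was then -0.038.

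The remaining comparison is the interaction, the amygdala freezing difference minus the hippocampal one. No probe set was called (0%), none of the 42 members had p under 0.05 before adjustment by limma, and 1640 of 27022 probe sets did. The members' median was 0.050 against 0.0039 over all probe sets and 0.040 over non-ribosomal ones of 2000 units or more. Without high freezing hippocampus array 11 it was 0.014, with 19 of 42 members below 0, against 11 with all arrays. Without low freezing hippocampus array 4 it was 0.067, and without low freezing amygdala array 1 it was 0.069. Rpl39 had the smallest p of the members, at -0.55 ± 0.29 (adjusted p = 0.836 by limma).

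By group mean, low freezing amygdala was the highest of the 4 groups for 26 of the 42 members and high freezing hippocampus the lowest for 30. Over all probe sets these shares were 27.4% and 25.2%. Among the 32 members at 2000 units or more, high freezing hippocampus was lowest for 29. This share was not counted for non-ribosomal probe sets of that brightness. They leaned the same way in the hippocampus, where 536 of 723 had a high minus low freezing difference below 0. High freezing hippocampus array 11 had 40 of 42 members below its group mean, and the order of the groups was not recounted without it. Rplp0 illustrates the order, averaging 3128 ± 159 and 3530 ± 248 units in high and low freezing amygdala and 2995 ± 319 and 3306 ± 222 units in high and low freezing hippocampus (SD, n = 6 each). The freezing steps of the order did not pass the test in any member, and the regional step of Rplp0 did not pass either (adjusted p = 0.137 by limma).

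**Figure D5:**
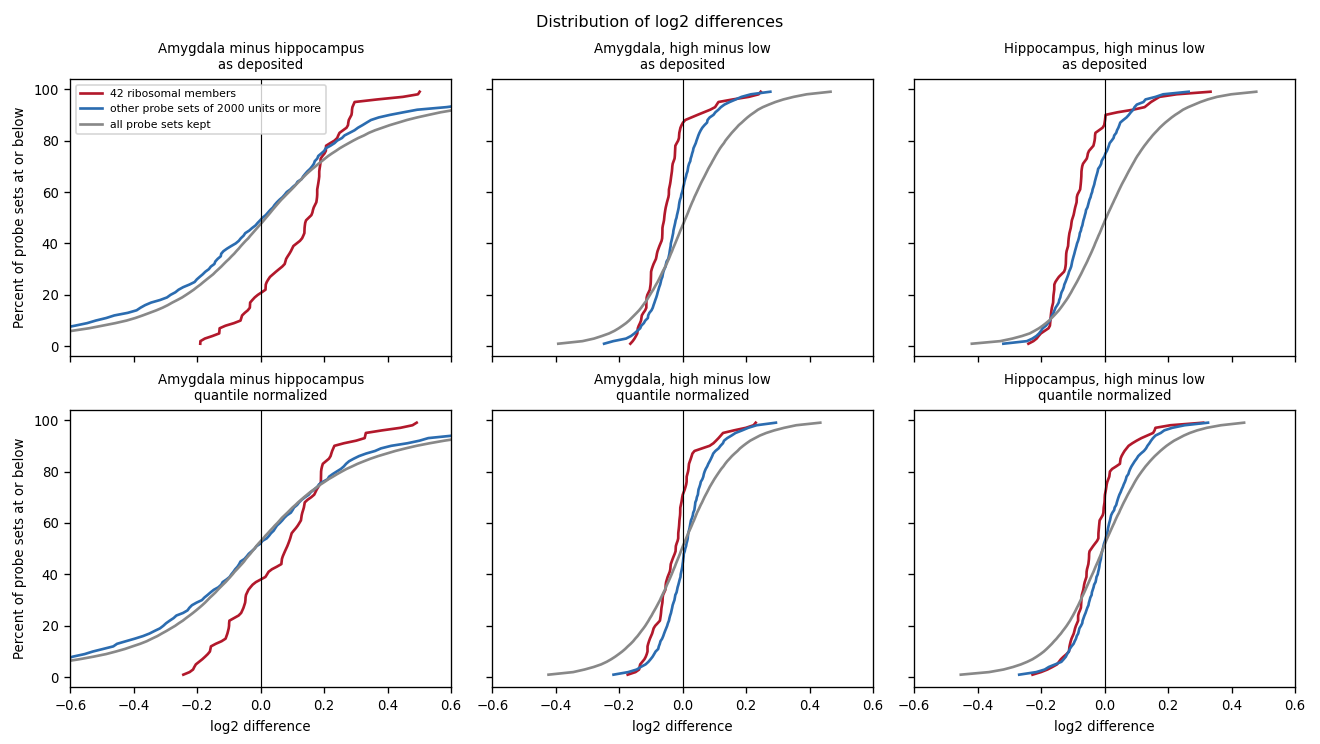
Cumulative percent of probe sets at or below a log2 difference, for the 42 members, other probe sets of 2000 units or more and all probe sets kept, in the values as deposited (top) and after quantile normalization (bottom). The members' median regional difference was 0.15 as deposited and 0.080 after quantile normalization, and their freezing medians moved closer to 0, to -0.022 in amygdala and -0.042 in hippocampus.

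Among the other lists of translation genes, 1 of 76 mitochondrial ribosome genes and 1 of 40 ribosome assembly genes were called in the average over both regions, where 1.04% of all probe sets were called. Mrpl42 of the mitochondrial ribosome was lower with high freezing, at -0.18 ± 0.040 (adjusted p = 0.0190 by limma), and so was Nop10, a component of the particles that modify ribosomal RNA, at -0.23 ± 0.044 (adjusted p = 0.00787 by limma). No initiation, elongation or mTOR signalling gene of the lists was called in any freezing comparison. Rpl22l1, the paralog of Rpl22, stood at -0.15 in the average (adjusted p = 0.0768 by limma), and all 5 ribosomal genes outside the naming pattern lay below 0 there. Mitochondrial ribosome genes had medians of -0.039 in amygdala and -0.069 in hippocampus.

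Cell type markers were read in the freezing comparisons too. All 9 microglial markers lay below 0 in the average over both regions, with a median of -0.19, and C1qc, a complement gene of microglia, was called lower at -0.40. Their summed intensity was 3665 to 4214 and 3807 to 5297 units in high and low freezing amygdala, and 2940 to 3362 and 3040 to 3740 units in high and low freezing hippocampus. Of 10 astrocyte markers 7 lay below 0 and 3 above in the average over both regions, with a median of -0.077. Only 1 of them was called, Gfap, an intermediate filament protein, which was lower at -0.87. In the hippocampus all 8 choroid plexus markers lay above 0 with a median of 0.20 and none called; their sums ran from 2272 to 13516 units with a median of 8707 on high freezing arrays, and from 1924 to 11962 units with a median of 3597 on low freezing arrays. In the amygdala all 8 markers of central amygdala and striatum lay below 0 with a median of -0.28, and all 8 also lay below 0 in the interaction. Their sums ran from 5882 to 10290 units on high freezing amygdala arrays and from 7353 to 10937 units on low freezing ones. Excitatory neuron markers lay above 0 there in 6 of 7, with a median of 0.30 and 3 with p under 0.05 before adjustment, and none was called by limma. Their sums ran from 3108 to 3771 units on high freezing amygdala arrays and from 2307 to 3450 units on low freezing ones. The part of these cell types in the members' freezing differences was not tested.

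The members can also be split by the pyrimidine run at their start. The 14 tested members with a run of at least 8, among them Rps18, Rpl38 and Rplp2 shown above, had a median regional difference of 0.19 and 9 called higher, and the 22 without had 0.13 and 11 called higher. In the freezing average the median was -0.058 with the run and -0.079 without it. Of the members with TTCCGG in the promoter window 13 of 24 were called higher between regions, and of those without it 7 of 12, with medians of 0.18 and 0.13. No test was made over these groups, which were formed from annotation alone.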

How the data were processed

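The deposited table holds 1 linear intensity per probe set and array, 45101 probe sets on 24 arrays; for the authors' intensity values no software is given in the sources used here. Every array had a mean of 150.0 units once its highest and lowest 2% were trimmed, as scaling to 1 target would give. With 6 arrays per group, their number limits the precision. The log2(intensity + 16) values were used without further normalization, since array medians spanned 0.172 on that scale, under the limit of 0.2. The 64 control probe sets and the dimmest 40% by mean were left out, which left 27022 with means of at least 24.2 units. Symbols came from the platform annotation (34958 probe sets with 1 symbol, 932 with several, 9211 with none) and promoters from RefSeq.

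The limma 3.58.1 fit (R 4.3.3) gave each group its own mean over all 24 arrays, left 20 residual degrees of freedom and let the prior variance depend on intensity. All 5 comparisons used two-sided tests at 0.05, adjusted by Benjamini-Hochberg across the probe sets kept. The model was tested on simulated data with noise drawn independently for each probe set and array. Probe sets that move together on an array were not simulated. Members and gene lists were chosen with earlier results of these data known, so no list was tested. Named members are, per comparison, the 8 highest and 8 lowest past the threshold or the 5 of smallest p, plus the stalk, paralogs, Rps6, Rpl11, Rps19, Rpl38, Rpl13a, Rps18 and Rpl19; Rpl4, Rpl6, Rpl7a, Rpl10a and the other called members were named after their values were seen. Of the other lists, only part of the 3 highest and 3 lowest calls is named.

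Alternatives were an offset of 1 or 64, quantile normalization, centring on the array median, no filter, the dimmest 60% left out, no intensity trend, each region fitted alone, averaging all probe sets of each gene, members on probe sets without a suffix, the replicate number as a block, and each array left out in turn.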

Additional observations from a re-analysis of the deposited data

Results flagged for a closer look

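Within each group of 6 arrays, a member's highest and lowest array was compared with the nearest other array as a share of the group's range (Dixon's criterion, which chance passes in about 1 of 20 groups). Over 168 groups, 6 held an array that stood apart. Rpl10a had 2775 units on high freezing amygdala array 12, and 3277 to 3534 on the other arrays of that group. Rpl37a had 6207 units on the same array, with 6863 to 7214 on the others. Rps14 had 8001 units on high freezing amygdala array 9, with 6664 to 6927 on the others. Rps18 had 2233 units on high freezing hippocampus array 11, with 3072 to 3414 on the others. Rps26 had 3381 units on low freezing hippocampus array 3, with 2779 to 3003 on the others. Rps4l, on its dim probe set, had 271.7 units on low freezing amygdala array 1, with 130.0 to 172.4 on the others.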

How the results depend on the processing

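No alternative called a member in the freezing comparison of either region or in the interaction. Centring arrays on their median left 10 members higher and 6 lower between regions and called 4 lower in the average freezing difference. Over all probe sets, centring called 31.9% lower between regions and 2.5% lower in the average freezing difference. Between regions, averaging all probe sets of each gene left 15 members higher and 2 lower, and no filter left 0 lower. Quantile normalization gave 10 members lower there, where 27.1% of all probe sets were called lower. Over arrays left out 1 at a time, 0 to 1 members were called lower between regions and 0 to 1 in the average freezing difference. Members on probe sets without a suffix had a regional median of 0.054. With probe sets averaged per gene the regional difference turned to -0.049 for Rpl13a, -0.27 for Rpl22, -0.048 for Rpl37a and -0.047 for Rps9, and the hippocampal freezing difference of Rps18 to 0.040; with quantile normalization Rps29 turned to -0.16. The cause of these shifts was not tested. Replicate numbers 1 to 12 recur in both regions, but same-numbered arrays did not deviate together (correlations of -0.079 to 0.084, 0 of 12 over 0.1, 4 of 12 highest with their own number). With the replicate number as a block, 24 members were higher and 1 lower between regions and no other call changed. Dim probe sets, such as those of Rps6, Rps27 and Rpl39, had the widest errors and limit what can be seen.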
